A study of Mus musculus with 6 samples.

Results

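The transcripts described here are 10 of the bone morphogenetic protein (BMP) pathway: the helix-loop-helix inhibitors Id1, Id2, Id3 and Id4, the inhibitory Smads Smad6 and Smad7, the decoy receptor Bambi, and the receptor-activated Smads Smad1, Smad5 and Smad9. They were chosen by symbol, with earlier results of these data known, and all 10 were found among the 12830 genes of the deposited table. RNA was sequenced from primary cultures of marrow stroma (BMSCs), plastic-adherent cells with osteoblast and fat cell potential, taken from mice aged 8 weeks after 2 days under osteogenic induction. The 3 cKO libraries came from Prx1;Rras2f/f cells, which lack Rras2 where the Prx1 promoter was active, a promoter of limb mesenchyme. The 3 FF libraries came from Rras2f/f cells. Both groups carried the floxed Rras2 allele and had the same induction. Nothing in the labels ties each library to its own animal. The p-values therefore speak only for the spread among these 6 libraries, part of which may be technical.

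BMP ligands bind paired serine/threonine kinase receptors, which phosphorylate Smad1, Smad5 and Smad9. These join Smad4 and act in the nucleus, where Id genes are among their most direct targets. Id proteins lack a basic region and hold E proteins and other bHLH factors away from DNA. Smad6, Smad7 and Bambi are themselves induced by the pathway and damp it. In marrow stroma, BMP signals drive cells towards osteoblasts.

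Library totals over the listed genes ran from 31934714 to 37561452 counts, and no member was rare: the lowest mean was 338 counts per library, for Id1, and the highest was 5333, for Id3. Rras2 itself, the GTPase gene that was deleted, had 26.65, 29.0 and 26.8 CPM (counts scaled to library size with TMM factors) in cKO and 49.7, 50.1 and 44.7 CPM in FF, so 57.0% of the FF level remained in these cultures (edgeR adjusted p = 1.08e-05). All 12 stroma markers were measured. Cxcl12 and Lepr rose by 0.47 each on the log2 scale, Col1a1 and Col1a2 fell by 0.59 and 0.44, and the other 8 did not pass. Of these 8, Prrx1 (log2 fold change -0.14) and Ly6a (-1.05) were lower in every cKO library than in any FF library. Such a lack of overlap held for 11.2% of all genes. Vcam1 (0.09) was higher without overlap. The groups overlapped for Pdgfra, Pdgfrb, Cd44, Nt5e and Thy1. The cultures also held macrophage RNA. The 12 macrophage markers summed to between 24753 and 25512 CPM in cKO and between 22734 and 24063 CPM in FF. Lyz2 was the largest part, with means of 17134 CPM in cKO and 15801 in FF, so the sum mostly follows that gene.

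Id1, Id2, Id3, Smad7 and Bambi fell in cKO, while Id4, Smad1, Smad5 and Smad9 did not pass the test, and Smad6 was lower in every cKO library without passing it. So 5 of the 10 were called lower and 0 higher in the edgeR quasi-likelihood test, at a threshold of 0.05 on p-values adjusted over the whole table by Benjamini-Hochberg. Over all genes 4.84% were called in either direction, 2.74% lower and 2.1% higher. The median log2 fold change of the 10 genes was -0.42, against 0.00058 over all 12830 genes. For 7 of the 10 every cKO library lay below every FF library, which held for 11.2% of all genes. Because the 10 genes were chosen with earlier results of these data known, these comparisons with all genes are descriptive and no test. These are bulk libraries, in which fewer cells of a type and less RNA per cell cannot be told apart.

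**Figure D1:**
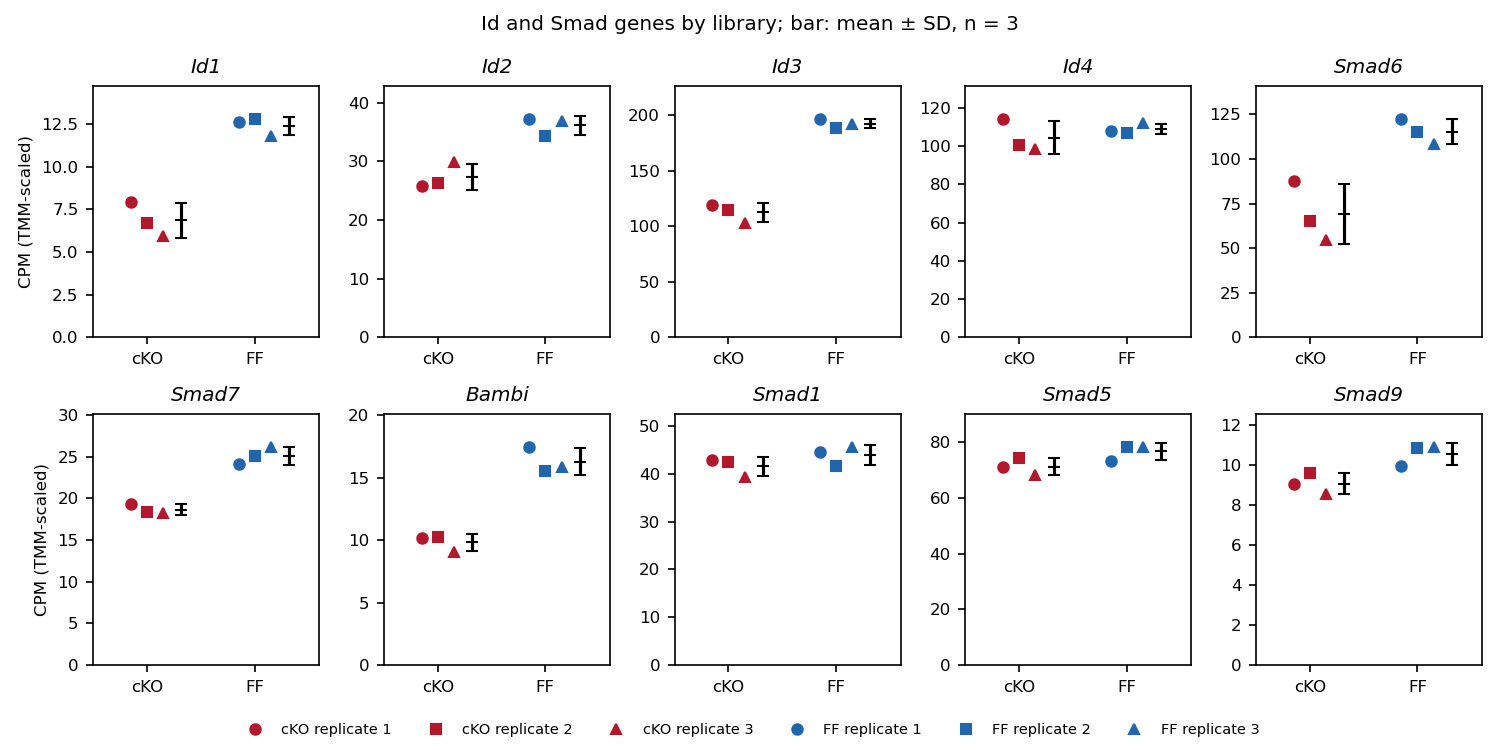
Expression of each Id and Smad pathway gene in CPM (y axis, from 0), with 1 point per library, cKO left of FF; the bars give mean ± SD over 3 libraries. Id1, Id2, Id3, Smad6, Smad7, Bambi and Smad9 have no overlap between groups, and cKO replicate 1 lies well above the other cKO libraries for Smad6.

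Id3 (ENSMUSG00000007872, mm10 chromosome 4, 136143497 to 136145755, plus strand) was the most abundant of the Id transcripts and had the fifth smallest p of the whole table. It had 119, 115 and 103 CPM in cKO and 197, 189 and 192 CPM in FF. The groups were far apart, with a spread of 7.35% (SD over mean) in cKO and 2.08% in FF. Its log2 fold change of -0.78 (standard error 0.0525) put cKO at 58.4% of the FF level (95% interval 0.540 to 0.631 as a ratio; edgeR adjusted p = 1.14e-06).

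Id1 (ENSMUSG00000042745, chromosome 2, 152736251 to 152737410, plus strand) is the Id gene in which BMP-responsive enhancers were best worked out. It had 7.95, 6.71 and 5.92 CPM in cKO and 12.6, 12.8 and 11.8 CPM in FF. No library of one group reached the other, and cKO replicate 1 was the highest of its group. The log2 fold change was -0.85 (standard error 0.123; edgeR adjusted p = 0.000917). The 95% interval, -1.12 to -0.59, holds the value of Id3. A difference between the falls of Id1 and Id3 was not tested.

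Id2 (ENSMUSG00000020644, chromosome 12, 25093799 to 25097140, minus strand) also fell. It had 25.7, 26.3 and 29.9 CPM in cKO and 37.3, 34.3 and 36.96 CPM in FF, a log2 fold change of -0.40 (standard error 0.0731; edgeR adjusted p = 0.00468). Its interval, -0.56 to -0.25, lay above the whole interval of Id3, -0.89 to -0.66. Id2 also differed in its order within cKO: replicate 3 was the highest there, whereas replicate 3 was the lowest cKO library for each of the other 9 genes.

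Id4 (ENSMUSG00000021379, chromosome 13, 48261228 to 48266026, plus strand) was the exception among the Id genes. It had 114, 100.4 and 98.5 CPM in cKO and 108, 107 and 112 CPM in FF, and the groups overlapped. The log2 fold change was -0.06 (95% interval -0.18 to 0.06; edgeR adjusted p = 0.634), and a fall as large as that of Id3 lies outside its interval. Within each library, the log2 ratio of Id3 to Id4 was 0.06, 0.19 and 0.07 in cKO and 0.87, 0.82 and 0.77 in FF. That difference of -0.71 had an exact two-sided permutation p of 0.1, the smallest that 3 against 3 libraries can give, also after adjustment over the 2 ratios tested. Each ratio set a gene lower in every cKO library over a gene whose groups overlapped. The adjustment does not count this choice of pairs, so the p adds nothing beyond the values of the single genes. Id4 is overlapped by 2 annotated transcripts on the opposite strand, and the strand setting of the counting is not given in the sources used here, so reads from them cannot be told apart from Id4 reads.

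The promoter sequences of Id2 and Id4 are shown because these genes share a GC-rich letter motif, while Id2 passed the test and Id4 did not. The motif GGCGCC forms part of a known BMP response element, and capitals mark it. In Id4 capitals also mark GCCGNCGC, a Mad-binding motif described in the fruit fly. Both strands were searched in RefSeq windows of 250 bases before to 50 after each start site (GRCm38.p6). Windows of 7 of the 10 genes were used. Id1, Smad7 and Bambi, all called lower, gave none that was used, so motifs near them are not described. The Id2 stretch, chr12:25096254-25096342 on the minus strand, lies before the RefSeq start and in an intron of the longer GENCODE transcript, with the motif at -231 from the RefSeq start. The Id4 stretch is chr13:48260866-48261115 on the plus strand, with GGCGCC at -148 and GCCGCCGC at -119.
Id2: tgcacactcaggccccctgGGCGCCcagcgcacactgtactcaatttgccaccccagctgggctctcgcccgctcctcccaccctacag
Id4: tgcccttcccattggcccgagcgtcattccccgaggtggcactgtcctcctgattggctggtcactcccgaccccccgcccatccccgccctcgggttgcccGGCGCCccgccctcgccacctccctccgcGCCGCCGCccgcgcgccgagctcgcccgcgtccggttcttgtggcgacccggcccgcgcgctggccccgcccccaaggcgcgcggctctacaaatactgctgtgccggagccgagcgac
GGCGCC was also found in windows of Smad5 and Smad9, as was GCCGNCGC, and neither gene passed the test. Of the 32851 windows 11.9% held GGCGCC and 9.76% held GCCGNCGC. The matches describe letters only. Of 2402 measured genes with GGCGCC in a window, 72 were called lower and 37 higher, against 253 lower and 189 higher among the 9828 measured genes with any window, or 2.998% lower against 2.57%.

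Levels of different genes were compared in the authors' FPKM, which scales counts by length and library size. In cKO, Id3 had 79.8 ± 6.45 FPKM, Id4 24.6 ± 2.17, Id2 17.0 ± 1.48 and Id1 6.39 ± 1.11 (SD, n = 3). In FF, Id3 had 137.8 ± 0.773 FPKM, Id4 25.9 ± 0.897, Id2 23.1 ± 3.27 and Id1 11.9 ± 0.504 (SD, n = 3). The order was the same in both groups, but Id4 and Id2 ranges overlapped in FF and not in cKO. Summed over the 4 genes, Id FPKM was 138, 127 and 118 in cKO and 197, 196 and 204 in FF. Id4 made up 19.3% ± 0.490 of that sum in cKO and 13.05% ± 0.243 in FF (SD, n = 3), and Id3 between 61.5% and 64.3% in cKO and between 68.0% and 70.1% in FF. Id2 FPKM is the least firm of these: 1000 Id2 counts were worth between 15.4 and 22.6 FPKM depending on the library, a wider spread than the 19.1 to 22.5 FPKM for Id3.

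**Figure D2:**
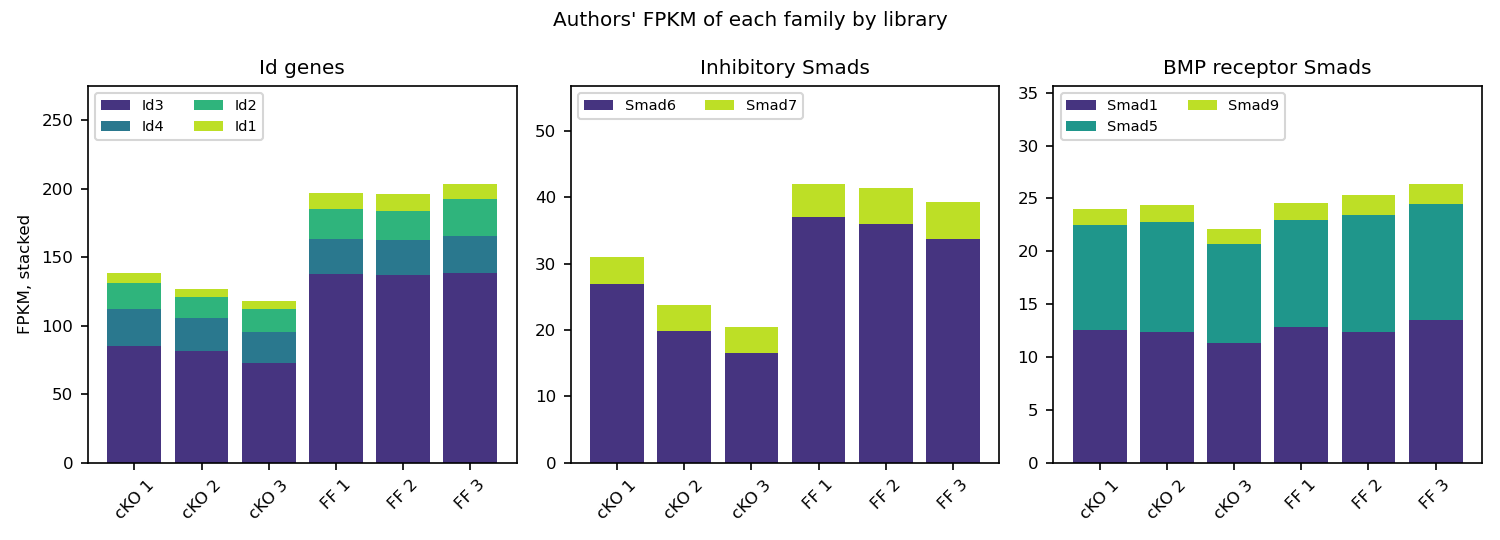
Authors' FPKM (y axis, stacked from 0) of the Id genes, the inhibitory Smads and the BMP receptor Smads in each library (x axis, cKO left of FF). The Id sum is between 118 and 138 FPKM in cKO and between 196 and 204 FPKM in FF, and the receptor Smad sum is between 22.2 and 24.4 FPKM in cKO and between 24.6 and 26.4 FPKM in FF.

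Smad7 (ENSMUSG00000025880, chromosome 18), which blocks receptors and recruits ubiquitin ligases to them, fell. It had 19.4, 18.3 and 18.3 CPM in cKO and 24.1, 25.1 and 26.2 CPM in FF. The spread of its 3 cKO libraries was 3.34% (SD over mean), no more than the 3.89% that counting error alone gives. A log2 fold change of -0.43 (standard error 0.0747) put cKO at 74.2% of the FF level (edgeR adjusted p = 0.00355).

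Bambi (ENSMUSG00000024232, chromosome 18), a membrane protein shaped like a type I receptor without its kinase, fell as well. It had 10.2, 10.2 and 9.03 CPM in cKO and 17.5, 15.5 and 15.9 CPM in FF, without overlap. A log2 fold change of -0.73 (standard error 0.0982) put cKO at 60.3% of the FF level (edgeR adjusted p = 0.000598). Its interval, -0.94 to -0.52, overlaps that of Smad7, -0.59 to -0.27. The genome also holds a processed Bambi pseudogene, and how reads shared with it were counted is not given in the sources used here.

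Smad6 (ENSMUSG00000036867, chromosome 9, 63953076 to 64022059, minus strand), which competes with Smad4 for Smad1, was the more abundant of the inhibitory pair and, in cKO, the most variable of the 10 genes. It had 87.5, 64.9 and 54.7 CPM in cKO and 123, 115 and 108 CPM in FF. The groups did not overlap, but the spread in cKO was 24.3% (SD over mean) where counting error gives 2.03%, and in FF it was 6.16%. The log2 fold change of -0.74 had a standard error of 0.199 and did not pass (edgeR adjusted p = 0.170). Without cKO replicate 1 it was -0.95 and passed (adjusted p = 0.000167); leaving out any other single library gave adjusted p-values of up to 0.395. It passed with all 6 libraries in DESeq2 (adjusted p = 0.00857), in limma-voom (0.0225) and in edgeR without robust estimation (0.0345). The same order of cKO libraries, replicate 1 highest and replicate 3 lowest, was seen in the summed markers of stroma, osteoblasts (6591, 6493 and 6043 CPM), endothelium (46.7, 41.8 and 35.8 CPM) and lymphocytes, and not in those of macrophages. In the stroma sum it was the order of Col1a1 and Col1a2, while Cxcl12 was lowest in replicate 1 (4636, 4969 and 4910 CPM). The part of these cell types in the Smad6 values was not tested.

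The Smad6 start site is shown because it holds GTCTAGAC, the palindromic Smad-binding letter motif, which was the rarest of those searched. Capitals mark it at -4 from the RefSeq start, across the start site, in chr9:64022056-64022309 on the minus strand of GRCm38.p6.
Smad6: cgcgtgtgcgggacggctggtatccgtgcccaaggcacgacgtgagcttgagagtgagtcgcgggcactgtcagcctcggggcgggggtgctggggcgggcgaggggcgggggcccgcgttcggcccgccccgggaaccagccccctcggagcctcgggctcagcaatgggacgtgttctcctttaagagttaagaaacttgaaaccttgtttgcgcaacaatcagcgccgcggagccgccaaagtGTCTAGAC
The motif, searched on both strands, was present in 70 of the 32851 windows, or 0.213%. Among measured genes 31 had it in a window. Of these 31, edgeR called 0 at the adjusted threshold, 5 had an unadjusted p below 0.05, and 1 had an adjusted p below 0.05 in the authors' deposited table. Of the 9828 measured genes with a window, 16.7% had an unadjusted p below 0.05 and 6.21% an adjusted p below 0.05 in the deposited table. The shorter half-site GTCTG was present in 49.6% of windows. It was found in the Id3 window at -167 and -68 and in a Smad5 window at -21, counted from the RefSeq starts. All these sites lie inside the GENCODE loci of Id3 and Smad5.

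Smad1, Smad5 and Smad9, the proteins that carry the signal, did not pass. Smad1 (ENSMUSG00000031681, chromosome 8, 79338395 to 79399518, minus strand) had 43.0, 42.4 and 39.3 CPM in cKO and 44.7, 41.6 and 45.8 CPM in FF, and the groups overlapped. Its ratio of cKO to FF had a 95% interval of 0.859 to 1.04 (edgeR adjusted p = 0.577). Smad5 (ENSMUSG00000021540, chromosome 13, 56703010 to 56742377, plus strand) had 71.1, 74.4 and 68.2 CPM in cKO and 73.4, 78.3 and 78.5 CPM in FF, an interval of 0.857 to 1.01 (edgeR adjusted p = 0.328). Only 1 FF library of Smad5 lay within the cKO range.

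Smad9 (ENSMUSG00000027796, chromosome 3, 54755582 to 54801257, plus strand), also called Smad8, had 9.06, 9.59 and 8.56 CPM in cKO and 9.95, 10.9 and 10.9 CPM in FF. The groups did not overlap, yet the log2 fold change of -0.22 did not pass (95% interval -0.45 to 0.0066; edgeR adjusted p = 0.304). The spread of both groups, 5.67% in cKO and 5.15% in FF, was close to the counting error of 5.58% and 5.21%.

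**Figure D3:**
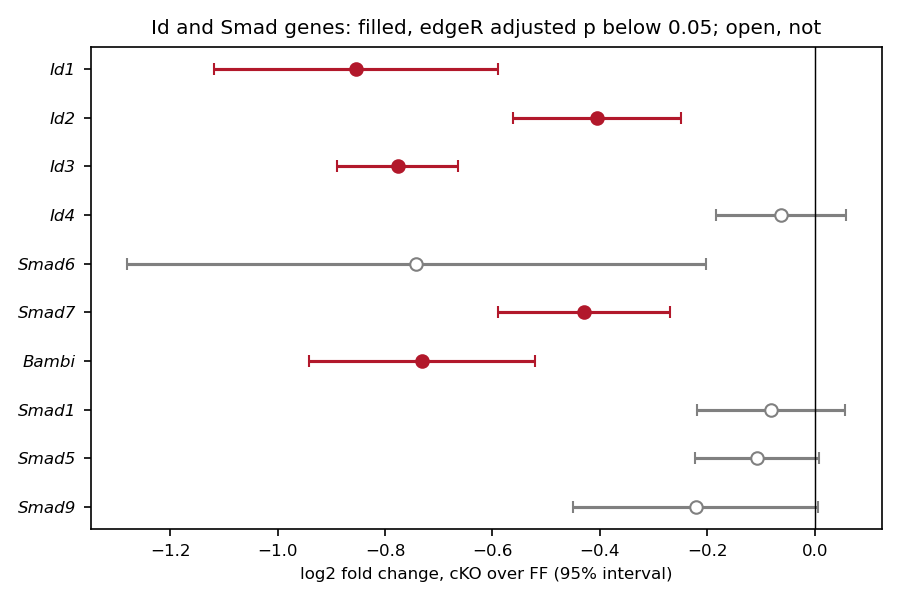
Log2 fold change of cKO over FF (x axis) for each Id and Smad pathway gene, with its 95% interval from the edgeR fit; filled points passed the adjusted threshold. Id1, Id2, Id3, Smad7 and Bambi are filled and lie between -0.85 and -0.40, and the wide interval of Smad6 runs from -1.28 to -0.20.

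Set side by side in FPKM, the inhibitory pair summed to 31.0, 23.8 and 20.4 in cKO and 42.0, 41.4 and 39.3 in FF, and the 3 receptor Smads to 24.0, 24.4 and 22.2 in cKO and 24.6, 25.3 and 26.4 in FF. The ratio of inhibitory to receptor Smad FPKM was therefore 1.29, 0.976 and 0.923 in cKO and 1.71, 1.64 and 1.49 in FF, without overlap. Smad6 exceeded Smad7 by a factor of 6.50, 5.11 and 4.28 in cKO and 7.33, 6.62 and 5.95 in FF, and these ranges overlapped. Within each library the log2 ratio of Smad6 to Smad1 in CPM averaged 0.71 ± 0.28 in cKO and 1.39 ± 0.13 in FF (SD, n = 3; exact two-sided permutation p = 0.1, the smallest possible here). As with Id3 and Id4, that p does not count the choice of the pair. Smad1 had 12.1 ± 0.665 FPKM in cKO and 12.9 ± 0.550 in FF, and exceeded Smad5, at 9.85 ± 0.485 in cKO and 10.7 ± 0.570 in FF, in every library (SD, n = 3). Smad9 at 1.53 ± 0.0963 FPKM in cKO and 1.80 ± 0.123 in FF and Bambi at 1.76 ± 0.134 in cKO and 2.94 ± 0.138 in FF were the lowest (SD, n = 3).

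The authors' deposited table gave 6 of the 10 genes an adjusted p below 0.05, the 5 named above and Smad6 (0.00857), all lower. There, 3.85% of all genes were lower at this threshold. Its direction column marked 4 of them as down, Id1, Id3, Smad6 and Bambi. Id2 and Smad7 were marked as not significant there although their deposited adjusted p-values were 0.000125 and 0.000122, and their deposited log2 fold changes were -0.41 and -0.43.

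**Figure D4:**
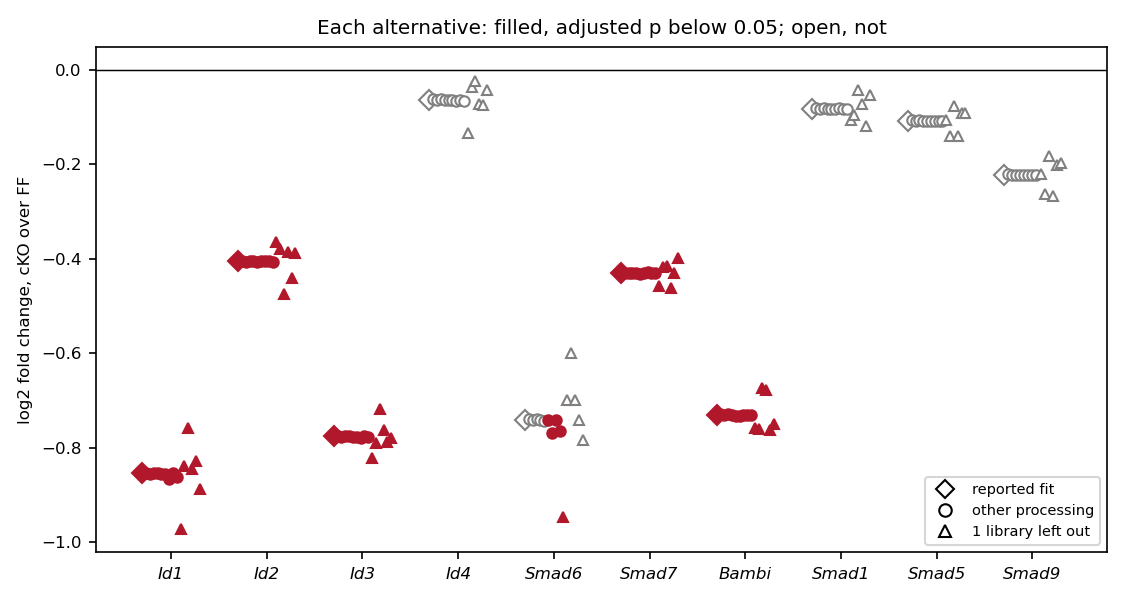
Log2 fold change of cKO over FF (y axis) for each gene under the reported fit (diamonds), other processing (circles) and with 1 library left out (triangles); filled symbols passed an adjusted p of 0.05. Id1, Id2, Id3, Smad7 and Bambi are filled throughout, Smad6 changes between open and filled, and all values are below 0.

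The nearest measured genes around these loci were looked up to see what else was measured there. The nearest measured protein-coding gene on each side gave 20 neighbours with log2 fold changes between -0.48 and 0.15. Their gaps to the loci ran from 1.86 kb to 1258 kb, so some are not close. EdgeR called 0 of the 20, while 4 had an unadjusted p below 0.05 and 1 an adjusted p below 0.05 in the authors' deposited table. Over all genes these shares were 4.84%, 17.3% and 6.61%. Smad3, a TGF-beta receptor Smad 195 kb from Smad6, had a log2 fold change of -1.34e-06 and did not pass.

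Of 11 measured members of a list of 12 BMP receptors and co-receptors upstream, 1 fell and 2 rose, where 2.74% of all genes fell and 2.1% rose. Neo1, a co-receptor for repulsive guidance molecules, fell by 0.29 on the log2 scale. Acvr2a, a type II receptor, was higher by 0.41, a call that ended without cKO replicates 2 and 3 and FF replicates 2 and 3 (edgeR adjusted p = 0.0574, 0.0591, 0.0593 and 0.0588). Tgfbr3, betaglycan, was higher by 0.18, and its call ended without cKO replicate 2 and FF replicates 1, 2 and 3 (edgeR adjusted p = 0.0812, 0.119, 0.136 and 0.0785), as it did in limma-voom (0.0542). The signalling receptors Bmpr1a, Bmpr2 and Acvr1 stood at -0.02, 0.03 and -0.07 on the log2 scale, none past the threshold (edgeR adjusted p = 0.899, 0.823 and 0.690). Without cKO replicate 2, FF replicate 2 or FF replicate 3, 0 of the list rose. Of all 12830 genes, these fits called 126, 107 and 162 higher. Among 20 Smad partners and regulators 1 fell and 0 rose by edgeR, with 4 lower and 0 higher at an unadjusted p below 0.05, where 8.81% of all genes were lower. The one that fell was Skil, a corepressor of Smads, by 0.31. Smad4, the shared partner, had 84.8, 93.0 and 82.2 CPM in cKO and 94.3, 95.4 and 96.8 CPM in FF and did not pass (edgeR adjusted p = 0.171).

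Ligands and secreted antagonists moved both ways. Of 9 measured ligands of 14, 2 rose and 2 fell, where 2.1% of all genes rose and 2.74% fell. Bmp4 had 88.7, 96.1 and 93.4 CPM in cKO and 64.8, 65.9 and 70.1 CPM in FF (log2 fold change 0.47; edgeR adjusted p = 0.000131). Bmp6 had 23.7, 20.2 and 24.2 CPM in cKO and 13.1, 14.5 and 11.3 CPM in FF. Both ligand transcripts were thus higher in every cKO library, while Bmp2 was spread over 9.61 to 14.1 CPM in cKO and 9.64 to 14.3 CPM in FF. Bmp5 fell by 0.28 and Gdf10 by 1.08. The Gdf10 call ended without cKO replicates 2 and 3 and FF replicates 1, 2 and 3 (edgeR adjusted p = 0.162, 0.0996, 0.0597, 0.125 and 0.0885) and without robust estimation (0.0646). Bmp3, outside the naming rule and chosen after its values were seen, had 6.01, 11.8 and 7.90 CPM in cKO and 0.810, 2.40 and 2.43 CPM in FF. It did not pass (edgeR adjusted p = 0.113), but did without FF replicate 1 (0.00819) and in DESeq2 (0.00166).

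Of 11 measured antagonists and modulators of 16, 4 rose and 3 fell, where 2.1% of all genes rose and 2.74% fell. Grem1 and Chrdl1, which bind BMPs, were higher by 0.43 and 0.46. Fst, follistatin, was higher by 0.25 and Fstl1 by 0.18. Nog fell by 1.47, Nbl1, a relative of gremlin, by 0.40, and Bmp1, a protease that cleaves chordin and procollagen, by 0.25. The call of Fst ended without cKO replicate 2 and FF replicate 2 (edgeR adjusted p = 0.0541 and 0.0667), and that of Bmp1 without cKO replicates 2 and 3 and FF replicate 2 (0.0526, 0.0526 and 0.0618). Fstl1 lost its call without cKO replicates 2 and 3 (edgeR adjusted p = 0.129 and 0.0959). The same held for leaving out each FF replicate (0.108, 0.181 and 0.0938) or robust estimation (0.0591).

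Other transcription factors linked to BMP signals were lower where they were called. Of 10 measured members of a list of 12, 4 fell and 0 rose by edgeR, 9 were lower and 0 higher at an unadjusted p below 0.05, and DESeq2 called 7 lower and 0 higher. Among all genes 2.74% fell by edgeR, 8.81% were lower at an unadjusted p below 0.05 and 3.85% were called lower by DESeq2. The list's median log2 fold change was -0.47. Atoh8, a bHLH factor, had 33.7, 27.5 and 27.4 CPM in cKO and 41.4, 43.2 and 43.4 CPM in FF (log2 fold change -0.53; edgeR adjusted p = 0.00123). Dlx3, a homeobox gene, fell by 1.09, Prrx2, also a homeobox gene, by 0.41, and Runx2, the osteoblast master regulator, by 0.25. The list's count of genes that fell was 8 without cKO replicate 1 and 1 without cKO replicate 2. It was 2 without cKO replicate 3 and 2 without FF replicate 2. Of all 12830 genes, the same fits called 631, 199, 207 and 161 lower. Dlx3 lost its call without cKO replicate 2 and FF replicate 2 (edgeR adjusted p = 0.0509 and 0.0682). Prrx2 lost it without cKO replicates 2 and 3 and FF replicate 2 (0.0606, 0.0727 and 0.102), and Runx2 without cKO replicates 2 and 3 and FF replicate 3 (0.0538, 0.0632 and 0.0740). Dlx5, with a log2 fold change of -0.55, did not pass (edgeR adjusted p = 0.158), but did without cKO replicate 1 (8.80e-06). With all 6 libraries it passed in DESeq2 (adjusted p = 0.000147) and in edgeR with the replicate number as a block (0.00514).

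Of 11 bHLH genes and partners 1 rose and 1 fell, where 2.1% of all genes rose and 2.74% fell. The E protein genes Tcf3, Tcf4 and Tcf12, whose products Id proteins bind, stood at -0.05, 0.0028 and -0.0071 on the log2 scale, none past the threshold (edgeR adjusted p = 0.759, 0.986 and 0.959). Hes1, a Notch target, fell by 0.65, a call that ended without cKO replicates 2 and 3 and FF replicates 1 and 2 (edgeR adjusted p = 0.0758, 0.0583, 0.0714 and 0.0911). Bhlhe41, a clock-linked repressor, was higher by 0.26 and lost its call without cKO replicate 3 and FF replicates 1 and 2 (0.0840, 0.0859 and 0.119). In a list of 10 genes of TGF-beta output 1 fell, Skil, and 0 rose, with the same counts at an unadjusted p below 0.05 and in DESeq2. Of all genes 8.81% were lower at an unadjusted p below 0.05 and 3.85% were called lower by DESeq2. Ccn2, a common TGF-beta target, stood at 0.03 on the log2 scale and did not pass (edgeR adjusted p = 0.812).

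**Figure D5:**
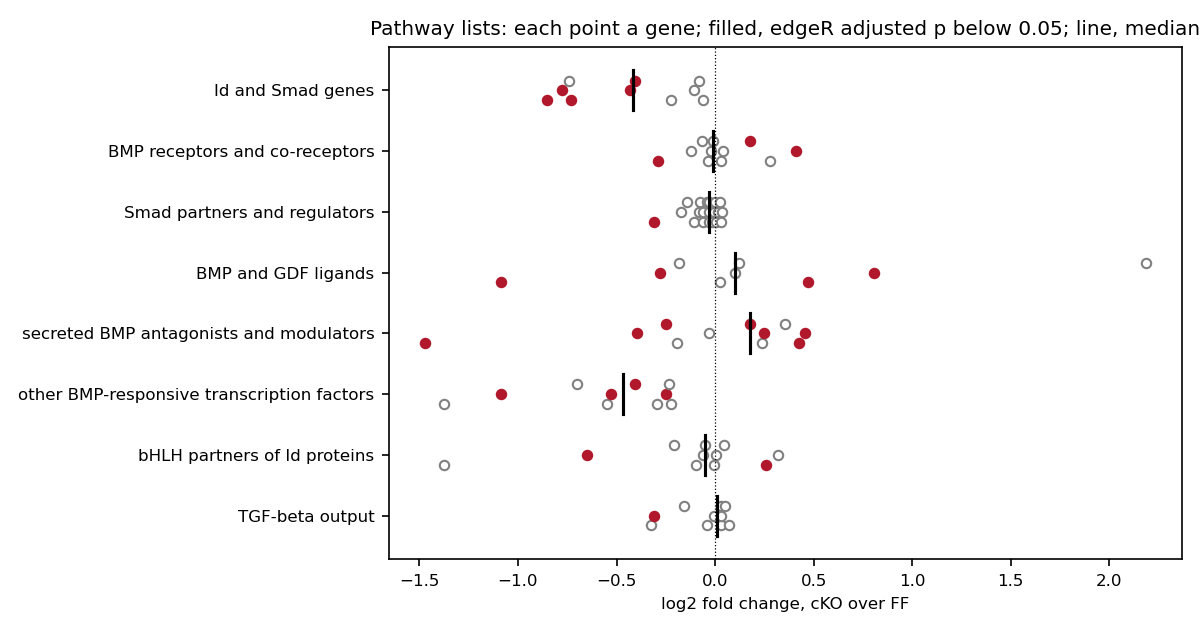
Log2 fold change of cKO over FF (x axis) for every measured gene of each list (rows), with filled points for an edgeR adjusted p below 0.05 and a line at the median. The medians of the Id and Smad genes and of the other BMP-responsive transcription factors are -0.42 and -0.47, and those of the receptors and Smad partners are -0.0083 and -0.03.

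Cell type markers differed between the groups too. For scale, edgeR called 2.74% of all genes lower and 2.1% higher. Of all 12830 genes, 631 were lower and 535 higher without cKO replicate 1, and 199 and 126 without cKO replicate 2. The counts were 210 and 161 without FF replicate 1, 161 and 107 without FF replicate 2, and 217 and 162 without FF replicate 3. DESeq2 called 3.85% of all genes lower, and 8.81% were lower at an unadjusted p below 0.05 in edgeR. The 10 osteoblast markers summed to between 6043 and 6591 CPM in cKO and between 7661 and 8071 CPM in FF. Sparc was the largest part, with means of 2725 CPM in cKO and 3451 in FF. The mean of Spp1 was higher in cKO (1675 CPM) than in FF (1491 CPM), without passing. Of the 10 markers Sparc and Runx2 fell, Runx2 being also in the transcription factor list above. In DESeq2 6 were lower. Without cKO replicate 1, 6 were lower and Spp1 was higher by 0.23 (edgeR adjusted p = 0.0118), against 0.17 and no call with all libraries. Without cKO replicate 2 or FF replicate 3, 1 was lower. The 12 stroma markers summed to between 14984 and 16719 CPM in cKO and between 18812 and 19794 CPM in FF, and 2 rose and 2 fell. The largest parts of that sum were Col1a1 (means of 5427 CPM in cKO and 8159 in FF) and Col1a2 (4949 and 6717), which fell. Cxcl12 (4838 and 3483) and Lepr rose, so the lower sum follows the 2 collagen genes and is no measure of stroma content. Of the 12 macrophage markers 2 rose and 1 fell. In DESeq2, which called 354 of all 12830 genes higher, 3 rose and 1 fell. The same counts were found without cKO replicate 1, while 0 did either without cKO replicate 2 or FF replicate 2. In limma-voom 1 rose and 1 fell. At an unadjusted p below 0.05 in edgeR 4 were higher and 1 lower, where 17.3% of all genes passed in either direction. Of 12 endothelial markers 10 were measured, at sums between 35.8 and 46.7 CPM in cKO and between 39.5 and 57.9 CPM in FF. EdgeR called 0 of them, DESeq2 also 0, and 3 were lower at an unadjusted p below 0.05. Of 12 lymphocyte and plasma cell markers 5 were measured, summing to between 315 and 378 CPM in cKO and between 196 and 215 CPM in FF, and 4 of the 5 rose, or 2 without cKO replicate 2 or any single FF replicate. The part of these cell types in the Id and Smad values was not tested.

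By the correlation of log2 CPM over the 6 libraries, among 10761 genes averaging 5 CPM or more, the genes most like Id1 were Syt6, Klf4, Creb3l1 and Tmed9 (r of 0.998, 0.998, 0.998 and 0.997). Those most like Id3 included Pcdhb22, Col12a1 and Cthrc1 (r of 0.998, 0.998 and 0.996). With 3 libraries a group these values mostly carry the difference between groups. Klf4, a zinc finger transcription factor, had 29.6, 27.3 and 25.0 CPM in cKO and 42.0, 42.7 and 40.1 CPM in FF. Creb3l1 (log2 fold change -1.05, edgeR adjusted p = 0.0375) lost its call without cKO replicate 2 and FF replicates 1, 2 and 3 (0.157, 0.140, 0.130 and 0.0969). Tmed9 had a log2 fold change of -0.09 and did not pass (edgeR adjusted p = 0.291).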

How the data were processed

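The authors deposited gene counts and FPKM values (scaled by length and library size) for 6 libraries, and for each gene log2 fold changes with raw and adjusted p-values, per the file headers. Per the submitters' processing notes reads were placed on mm10; aligner, annotation and counter were not given in the sources used. The test on counts was edgeR 4.0.16 under R 4.3.3 (TMM, filterByExpr, robust quasi-likelihood F test, no covariates, Benjamini-Hochberg over 12830 genes), and the filter removed 0 genes. Standard errors are the log2 fold change over the square root of F. DESeq2 1.42.0, limma-voom (limma 3.58.1), other scalings and filters, a replicate block and single left-out libraries were the alternatives. The fit was tested on simulated data. Loci are from GENCODE M21, and symbols missing from the table came from a gene name table matched by gene ID. The 10 genes and the pathway and marker lists were chosen with earlier results of these data known. The text names all 10, every called gene of the pathway lists, a fixed set of receptors, ligands and partners, and the 4 genes most correlated with Id1 and with Id3; some genes under this rule are not reported here. FPKM served for levels of different genes and their sums, shares and ratios by library, with no test. Promoter windows are from RefSeq, GRCm38.p6; some windows are not used here.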

Additional observations from a re-analysis of the deposited data

How the results depend on the processing

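Over the 15 alternatives, Id1, Id2, Id3, Smad7 and Bambi passed in each, with highest adjusted p-values of 0.0107, 0.0370, 0.000612, 0.0274 and 0.00659, and Id4, Smad1 and Smad5 passed in none. Smad9 passed in none of the 14 that kept it. The fold change of each gene kept its sign. Leaving out the filter, 1 of the 15, only repeated the reported fit, since the filter removed 0 genes. The DESeq2 alternative and the authors' deposited table both called 848 genes. They gave these 10 genes nearly the same fold changes, so they do not count separately. Smad6 passed in 5 alternatives, so 5 or 6 of the 10 genes were called throughout, and with a single library left out between 5 and 6. The number of genes called in the whole table was 621; it was 399 without robust estimation and between 268 and 1166 with 1 library left out. With the replicate number as a block 669 genes were called and Smad6 passed (adjusted p = 0.0334). Deviations from the group means had correlations of -0.036, 0.067 and -0.13 between same-numbered libraries. Differently numbered libraries ran from -0.18 (cKO replicate 2 with FF replicate 1) to 0.20 (cKO replicate 3 with FF replicate 1). With 3 libraries a group these values cannot show whether the numbers pair the libraries. Counting error was largest for Id1 and Smad9, the genes with the fewest counts, and its part in the Smad9 result was not tested.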
